A study of Homo sapiens with 6 samples.

Results

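Messenger RNA of 9 enzymes and enzyme subunits of the tricarboxylic acid (TCA) cycle was measured in the RPMI-8402 line, human leukaemia cells of T cell origin (T-ALL), with and without doxycycline-induced guide RNAs against MYC. The genes were CS, IDH2, IDH3A, IDH3B, OGDH, SUCLG1, SUCLA2, FH and MDH2, taken by gene name from a table of 63677 genes. The name MDH2 stood on 2 gene identifiers, of which ENSG00000262847 had 0 counts in all 6 samples, so ENSG00000146701 was used. All 9 genes passed the filter on low counts, which left 15492 tested genes.

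The cycle runs in the mitochondrial matrix, where it oxidises acetyl groups, hands the electrons to the respiratory chain and supplies carbon skeletons for amino acids, haem, nucleotides and lipids. Dividing leukaemic T cells draw its intermediates off for growth and refill it from glutamine. MYC is a transcription factor known for driving genes of mitochondrial metabolism and glutamine use. All 9 genes are encoded in the nucleus, and their proteins act in mitochondria.

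The study had 6 samples of RPMI-8402 cells that stably carried Cas9, the DNA-cutting enzyme of CRISPR editing, and all bear the genotype label MYC_KO. The 3 control samples received DMSO, the solvent, and the 3 treated samples received doxycycline, which turned on the guides, for 72 hours. No sample received doxycycline without guides, so effects of the drug and of the guides cannot be told apart. Nothing in the labels says that replicates came from separate cultures, so the p-values reflect no more than the spread among the 6 libraries, and this spread may be technical. In bulk RNA a smaller share of cells making a transcript and less of it per cell cannot be told apart.

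Total counts ran from 23121255 to 26214598 per sample. In DMSO replicates 1, 2 and 3 MYC stood at 409, 422 and 407 CPM (counts scaled to a library of 1000000), against 459, 431 and 431 CPM for doxycycline replicates 1, 2 and 3. Its log2 fold change was 0.09 (SE 0.049, edgeR adjusted p = 0.160), and it passed as higher with upper-quartile scaling (0.14, edgeR adjusted p = 0.0357) and under library-size scaling (0.14, edgeR adjusted p = 0.0281). MYC RNA was therefore not lower in the samples labelled doxycycline, and since small insertions and deletions leave most reads of a gene countable, this count checks the labels only in part. Of 11 markers of T cells and thymocytes, 10 exceeded 1 CPM in every sample, CD3E at no less than 888 CPM, while CD1A stayed at or under 0.418 CPM. The T cell list summed to 3295 to 3390 CPM in DMSO and 3526 to 3651 CPM with doxycycline. The sum of 4 B cell markers was 10.1 to 11.3 CPM in DMSO and 15.2 to 16.2 CPM with doxycycline, with MS4A1 at 0 counts. The sum of 4 myeloid markers was 0.909 to 1.19 CPM in DMSO and 1.64 to 1.97 CPM with doxycycline. The sum of 4 epithelial and fibroblast markers, nearly all of it COL1A1, was 39.9 to 40.2 CPM in DMSO and 47.3 to 52.9 CPM with doxycycline, with EPCAM and COL1A2 at 0 counts. These 4 sums were higher in all doxycycline samples than in all DMSO samples, and their part in the results below was not tested. The erythroid sum was at most 0.198 CPM in any sample and overlapped between groups, with HBB at 0 counts.

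In the doxycycline samples 5 of the 9 genes fell, SUCLG1, FH, SUCLA2, CS and MDH2, and 0 rose (edgeR quasi-likelihood test, adjusted p under 0.05). SUCLG1 fell by 28.9%, the most of the 5, and MDH2 fell by 11.3%, the least. Among all tested genes, 15.5% were called lower and 13.8% higher. Of the genes called 47.0% were higher, against 64.4% with upper-quartile scaling and 63.2% under library-size scaling. No gene of the 9 was higher at an unadjusted p under 0.05 (0 of 9). The share of all tested genes at that unadjusted threshold is not given here. By DESeq2 0 of the 9 were higher, where 1348 of all 13767 genes were. IDH2, OGDH, IDH3A and IDH3B did not pass. The median log2 fold change of the 9 genes was -0.17, beside 0.00 over all tested genes. Groups did not overlap, with all doxycycline samples below all DMSO samples, for the same 5 genes of 9, against 21.0% of tested genes.

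CS, SUCLG1 and FH were called lower in all 15 alternative analyses, and the start regions of these 3 genes are shown because the guides target MYC, a factor that binds the E-box. The windows hold 250 bases before and 50 bases after the RefSeq start of each gene, on GRCh38.p14, a build other than the hg19 named for the counts. Both strands were searched for the E-box CACGTG, which is its own reverse complement, and for the variant CACGCG, and matches are in capitals.
SUCLG1 (chr2:84459231-84459530, minus strand): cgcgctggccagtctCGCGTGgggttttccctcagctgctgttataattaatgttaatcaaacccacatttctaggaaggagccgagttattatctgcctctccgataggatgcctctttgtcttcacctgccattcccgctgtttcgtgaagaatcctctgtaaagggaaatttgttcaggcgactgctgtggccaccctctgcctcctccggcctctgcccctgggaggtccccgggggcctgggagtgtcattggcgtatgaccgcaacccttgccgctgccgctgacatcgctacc
FH (chr1:241519706-241520005, minus strand): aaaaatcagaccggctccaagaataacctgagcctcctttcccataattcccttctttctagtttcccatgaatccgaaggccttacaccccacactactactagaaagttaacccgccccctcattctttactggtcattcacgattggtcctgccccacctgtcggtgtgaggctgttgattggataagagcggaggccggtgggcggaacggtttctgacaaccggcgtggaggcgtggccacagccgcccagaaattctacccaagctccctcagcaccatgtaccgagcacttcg
CS (chr12:56300281-56300580, minus strand): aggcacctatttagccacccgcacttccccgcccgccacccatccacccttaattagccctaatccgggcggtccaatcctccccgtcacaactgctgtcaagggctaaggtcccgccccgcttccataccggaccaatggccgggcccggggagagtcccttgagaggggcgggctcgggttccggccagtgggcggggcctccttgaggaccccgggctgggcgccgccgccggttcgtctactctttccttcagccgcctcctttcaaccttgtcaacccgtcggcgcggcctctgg
The window of SUCLG1 holds 1 match to the variant, read as CGCGTG on this strand and starting at position -235 from the gene's start. The windows of FH and CS hold neither motif. RefSeq windows were matched for 8 of the 9 genes, OGDH being the exception, and other starts of a gene were not searched. CACGTG is in 0 of these 8 and in 7.43% of all 27305 windows. CACGCG is in 2 of 8, those of SUCLG1 and IDH3B, and in 11.4% of all windows. The ETS-type sequence CCGGAAG is in 2 of 8, those of MDH2 and IDH3B, and in 10.7% of all. These matches describe letters in the windows and do not show binding.

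Levels between genes were compared as CPM per kilobase of merged exons. IDH2, the mitochondrial NADP-dependent isocitrate dehydrogenase, stood highest at 155 ± 6.21 in DMSO (SD, n = 3). MDH2, mitochondrial malate dehydrogenase, followed at 89.0 ± 8.43, CS, citrate synthase, at 53.4 ± 1.90 and FH, fumarate hydratase, at 46.1 ± 2.10 CPM per kilobase (SD, n = 3 each). IDH3B and OGDH came next at 33.6 ± 2.01 and 31.1 ± 1.05, and their DMSO samples overlapped (31.3 to 34.9 and 29.9 to 31.9). SUCLG1 stood at 14.9 ± 0.160, IDH3A at 4.25 ± 0.265 and SUCLA2 at 2.40 ± 0.171 CPM per kilobase (SD, n = 3 each). No other neighbours in this order overlapped in DMSO, and the DMSO order of the 9 was the same per kilobase of the longest transcript. With doxycycline the order per kilobase of merged exons was also the same, while per kilobase of the longest transcript IDH3B (51.1) stood above FH (43.1). Per kilobase of merged exons, IDH3B (31.8 to 33.0) and OGDH (30.8 to 32.6) were again the neighbours that overlapped.

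**Figure D1:**
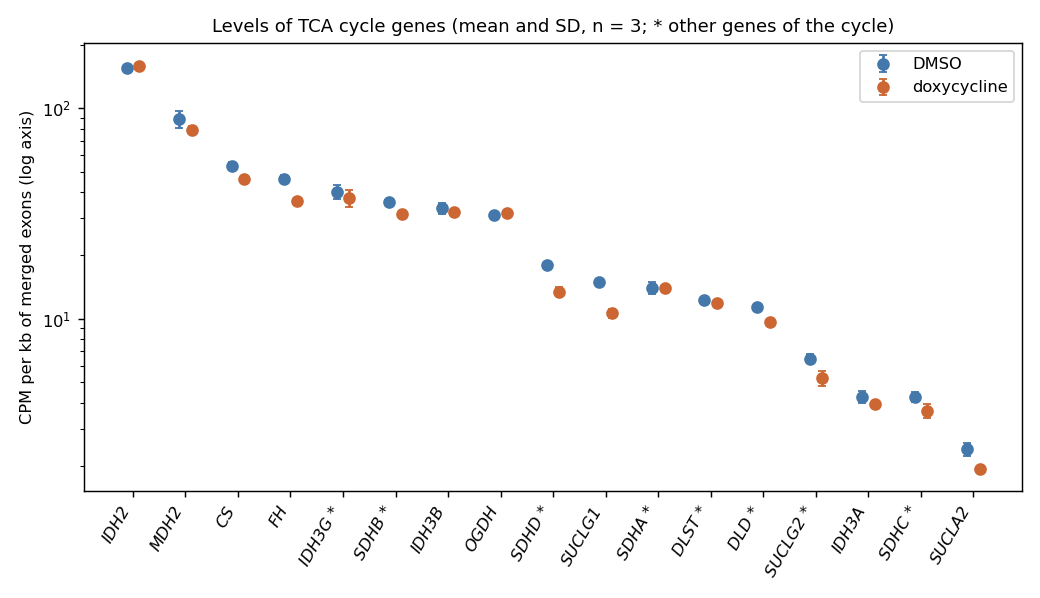
Mean level of genes of the cycle in CPM per kilobase of merged exons (log axis), with SD over 3 DMSO (blue) and 3 doxycycline (orange) samples; asterisks mark genes outside the 9 described. IDH2 is highest at 155 and SUCLA2 lowest at 2.40 CPM per kilobase in DMSO.

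Among the mitochondrial genes of the cycle plotted, the catalytic IDH3A subunit, SUCLA2 and SDHC, which is not among the 9, were at the low end per kilobase. SDHC stood at 4.25 ± 0.227 in DMSO (SD, n = 3), and per kilobase of the longest transcript it was below SUCLA2 (4.44 against 6.46). IDH3B and IDH3G, the other subunits of NAD-dependent isocitrate dehydrogenase, stood at 33.6 ± 2.01 and 40.0 ± 3.02 in DMSO against 4.25 ± 0.265 for IDH3A (SD, n = 3 each). The merged exons of IDH3A span 6832 bases and its longest transcript 4128, so its value per kilobase depends on which length is used. The raw counts of IDH3A, 636 to 785 per sample, were also below those of IDH3B, 2026 to 2266. The 9 genes summed to 1563 ± 63.0 CPM in DMSO and 1445 ± 15.9 CPM with doxycycline (SD, n = 3 each). IDH2, CS and MDH2 made up 70.4% and 71.2% of those sums.

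CS joins acetyl-CoA to oxaloacetate and so admits carbon to the cycle. Its level was 328, 352 and 345 CPM in DMSO replicates 1, 2 and 3 and 295, 297 and 290 CPM in doxycycline replicates 1, 2 and 3. All 3 doxycycline samples were below the lowest DMSO sample by at least 31.3 CPM. CS fell by 0.22 on the log2 scale (SE 0.048, edgeR adjusted p = 0.00136). With GC content and transcript length corrected it fell by 0.18 (edgeR adjusted p = 0.00251).

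**Figure D2:**
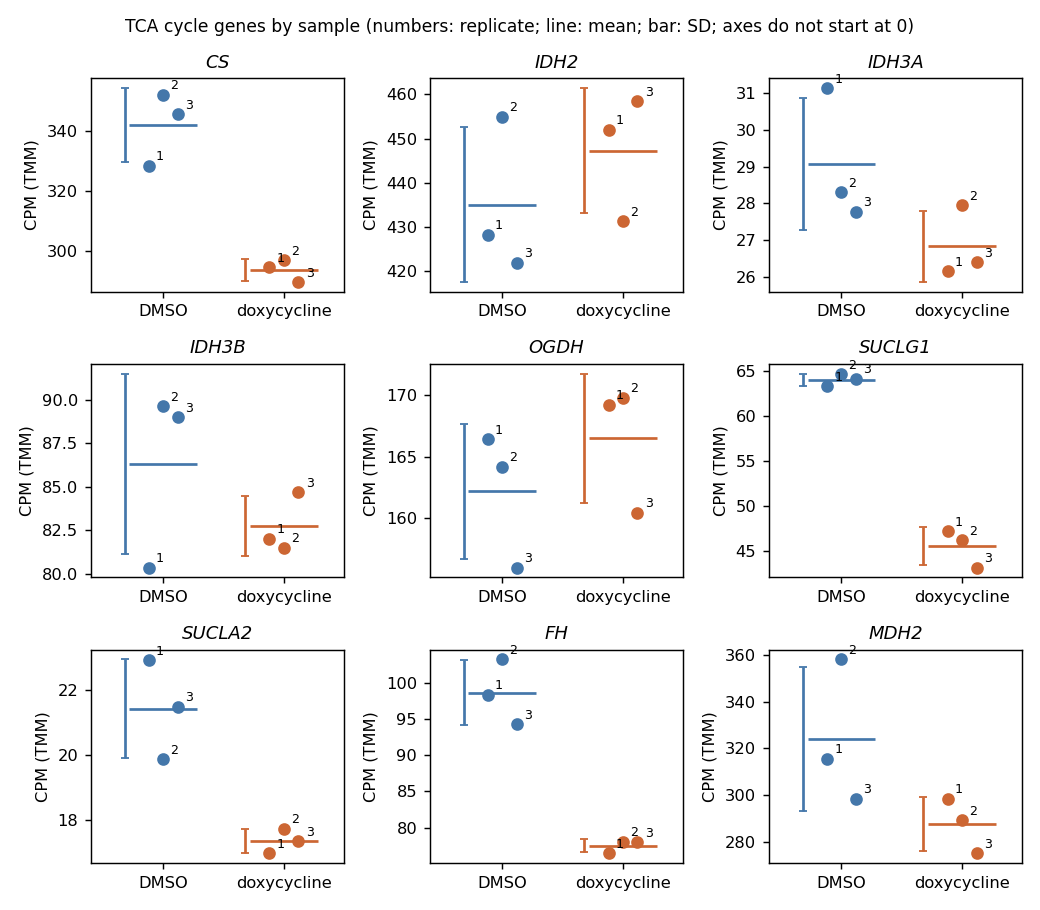
CPM (TMM-scaled) of the 9 genes in each sample, with replicate numbers beside the points, the group mean as a line and SD as a bar; axes do not start at 0. The groups are apart for CS, SUCLG1, SUCLA2 and FH, touch within 0.101 CPM for MDH2 and overlap for the other 4 genes.

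Isocitrate is oxidised to 2-oxoglutarate by the NAD-dependent IDH3 complex and by IDH2. DMSO replicates 1, 2 and 3 had 31.1, 28.3 and 27.8 CPM of IDH3A, and doxycycline replicates 1, 2 and 3 had 26.2, 27.9 and 26.4 CPM. Doxycycline replicate 2 lay above DMSO replicate 3, so the groups overlapped. The change of IDH3A was -0.12 with a 95% interval from -0.25 to 0.02 (edgeR adjusted p = 0.189). IDH3B, a regulatory subunit, was at 80.4, 89.6 and 89.0 CPM in DMSO and at 82.0, 81.5 and 84.7 CPM with doxycycline. The lowest of its 6 values was DMSO replicate 1, and the change was -0.06 with an interval from -0.17 to 0.05 (edgeR adjusted p = 0.428).

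IDH2 makes NADPH and can also run in reverse, carboxylating 2-oxoglutarate. It was the most abundant of the 9 genes, at 428, 455 and 422 CPM in DMSO and 452, 431 and 458 CPM with doxycycline. The groups overlapped, and the change was 0.04 (95% interval -0.06 to 0.14, edgeR adjusted p = 0.590). OGDH, the first subunit of the 2-oxoglutarate dehydrogenase complex, stood at 166, 164 and 156 CPM in DMSO and 169, 170 and 160 CPM with doxycycline. Its change was 0.04 (95% interval -0.06 to 0.14, edgeR adjusted p = 0.609), and the groups overlapped. The signs of IDH2 and OGDH turned with GC content and length corrected, to -0.011 and -0.059 (edgeR adjusted p = 0.875 and 0.319).

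Succinyl-CoA synthetase, which makes ATP or GTP directly, pairs the SUCLG1 alpha subunit with SUCLA2 in its ATP form and with SUCLG2 in its GTP form. SUCLG1 went from 63.3, 64.7 and 64.1 CPM in DMSO replicates 1, 2 and 3 to 47.2, 46.2 and 43.1 CPM in doxycycline replicates 1, 2 and 3. The gap between the groups was 16.1 CPM, wide beside the SDs of 0.684 and 2.12 CPM (n = 3 each). SUCLG1 fell by 0.49 on the log2 scale (SE 0.056, edgeR adjusted p = 7.11e-07). With GC content and length corrected the fall was 0.27 (SE 0.048, edgeR adjusted p = 4.47e-04).

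SUCLA2 stood at 22.9, 19.9 and 21.5 CPM in DMSO and at 17.0, 17.7 and 17.3 CPM with doxycycline. The doxycycline samples lay close together and 2.15 CPM or more below DMSO. SUCLA2 fell by 0.31 on the log2 scale (SE 0.073, edgeR adjusted p = 0.00259), but did not pass with GC content and length corrected (-0.17, edgeR adjusted p = 0.0651). SUCLG2 fell by a like amount, 0.30 (SE 0.076, edgeR adjusted p = 0.00379), from 20.0 ± 1.02 to 16.2 ± 1.26 CPM (SD, n = 3 each), and did not pass with the correction (-0.13, edgeR adjusted p = 0.195).

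FH hydrates fumarate to malate and is known as a tumour suppressor in kidney. DMSO replicates 1, 2 and 3 had 98.4, 103 and 94.4 CPM of FH, and doxycycline replicates 1, 2 and 3 had 76.4, 78.0 and 77.9 CPM. The doxycycline samples differed among themselves by an SD of 0.892 CPM and lay 16.3 CPM below the lowest DMSO sample. FH fell by 0.35 on the log2 scale (SE 0.052, edgeR adjusted p = 2.30e-05). With GC content and length corrected the fall was 0.17 (SE 0.041, edgeR adjusted p = 0.00542).

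MDH2 turns malate into oxaloacetate, closing the cycle, and serves the malate-aspartate shuttle. It was at 316, 358 and 299 CPM in DMSO and at 298, 289 and 275 CPM with doxycycline. The groups were apart by only 0.101 CPM, and DMSO replicate 2 stood above the rest. MDH2 fell by 0.17 on the log2 scale (SE 0.057, edgeR adjusted p = 0.0247). It did not pass without DMSO replicate 2 (-0.10, edgeR adjusted p = 0.170), without doxycycline replicate 2 (-0.18, 0.0531) or 3 (-0.14, 0.138), with both DMSO replicate 2 and doxycycline replicate 1 removed (-0.12, 0.0945), with upper-quartile scaling (-0.12, 0.107) and under library-size scaling (-0.13, 0.0793).

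**Figure D3:**
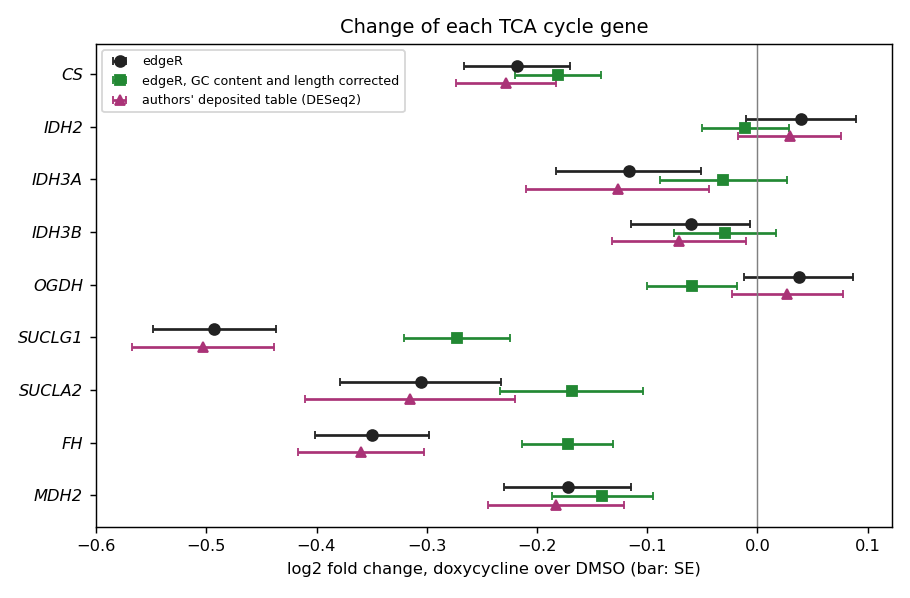
Log2 fold change of each gene (doxycycline over DMSO, bars SE) by edgeR (circles), by edgeR with GC content and length corrected (squares) and in the authors' deposited table (triangles). The corrected falls of SUCLG1 (0.27) and FH (0.17) are smaller than the uncorrected ones (0.49 and 0.35), and CS (0.18 against 0.22) moves less.

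Transcript base composition moved with these results. Over 15036 tested genes the log2 fold change rose with GC content (Spearman 0.41, a correlation across genes, which are not independent replicates). The longest transcripts of SUCLG1, SUCLA2 and FH were 40.3%, 41.0% and 43.7% GC, and those of CS and MDH2 49.0% and 52.3%. Of the 4 genes that did not pass, IDH3B, IDH2 and OGDH were at 54.6%, 55.9% and 56.3% and IDH3A at 43.7%. In the corrected fit CS, SUCLG1, FH and MDH2 were called lower, 4 of 9, and 0 higher, beside 11.4% of genes called lower and 10.8% higher, and the median of the 9 was -0.14. Real differences that go with base composition or length are taken out by the correction as well.

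In the authors' deposited table from DESeq2, the same 5 genes were called lower and 0 higher (adjusted p-value under 0.05), beside 15.6% and 9.79% of its genes. It gives log2 fold changes of -0.50 for SUCLG1, -0.36 for FH, -0.32 for SUCLA2, -0.23 for CS and -0.18 for MDH2, with adjusted p-values from 1.44e-12 for SUCLG1 to 0.0166 for MDH2.

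Ratios of 2 genes within a library do not depend on how libraries are scaled, and 5 were compared over 3 against 3 samples, where the smallest exact p is 0.1. The log2 ratio of IDH2 counts to those of IDH1, its cytosolic counterpart, was 2.66, 2.75 and 2.68 in DMSO and 2.90, 2.88 and 2.86 with doxycycline. The doxycycline ratios were all above the DMSO ratios, by 0.18 on average (exact permutation test, two-sided p = 0.1, adjusted over the 5 ratios 0.5). The log2 ratio of SUCLA2 to SUCLG1 was -1.58 ± 0.118 in DMSO and -1.39 ± 0.0815 with doxycycline, a difference of 0.19 with overlapping groups (SD, n = 3 each, exact permutation p = 0.2, adjusted 0.5). SUCLA2 to SUCLG2 differed by 0.01, MDH2 to its cytosolic counterpart MDH1 by 0.06 and IDH3A to IDH3B by -0.06, and these groups overlapped (exact permutation p = 1, 0.5 and 0.8). With 3 against 3 samples no ratio could pass 0.05 in this test, so these p-values cannot tell a change from none. The SD within any group was at most 0.175.

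**Figure D4:**
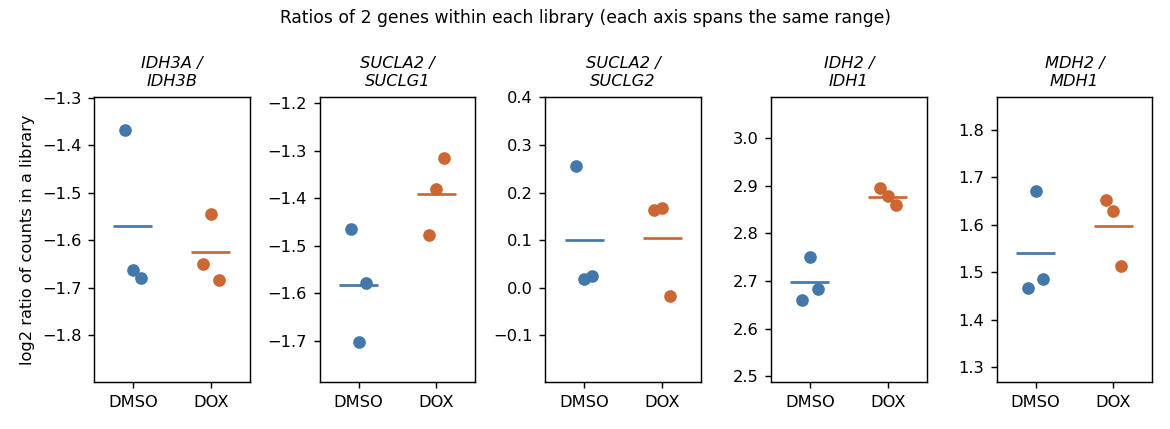
Log2 ratio of the counts of 2 genes in each DMSO (blue) and doxycycline (orange) library, with group means as lines; every axis spans the same range. The groups are apart for IDH2 over IDH1 and overlap for the other 4 ratios.

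The other 9 mitochondrial genes of the cycle showed a like split, with 5 lower and 0 higher and a median log2 fold change of -0.19. Over all tested genes 15.5% were called lower and 13.8% higher. SDHD, a membrane anchor of succinate dehydrogenase, fell by 0.41, from 53.0, 49.0 and 50.6 CPM in DMSO to 37.2, 40.4 and 37.0 CPM with doxycycline (edgeR adjusted p = 1.64e-05). DLD, the lipoamide dehydrogenase that 2-oxoglutarate and pyruvate dehydrogenase share, fell by 0.23 from 60.1 ± 0.281 to 51.3 ± 1.67 CPM (SD, n = 3 each, edgeR adjusted p = 0.00257). The other genes called were SUCLG2, given above, and SDHB and SDHC of succinate dehydrogenase, which fell by 0.19 and 0.22 and were chosen here after their values were seen. SDHA (-0.01), DLST (-0.04) and IDH3G (-0.10) were among those that did not pass. With GC content and length corrected 3 of these 9 were called lower, SDHC by 0.28, SDHD by 0.18 and IDH3G by 0.16. In that fit 11.4% of all genes were called lower and 10.8% higher. DLD (-0.08, edgeR adjusted p = 0.197) and SDHB (-0.04, 0.524) did not pass with the correction.

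Over 65 genes in 7 lists around the cycle, 62 were tested, 23 fell and 2 rose, with a median log2 fold change of -0.12, where 15.5% of all tested genes were called lower and 13.8% higher. With the correction 17 fell and 1 rose, where 11.4% of all genes were called lower and 10.8% higher, and 12 fell in both fits. Of 12 tested genes of pyruvate entry and its regulation, 6 fell and 1 rose. MPC2, a subunit of the mitochondrial pyruvate carrier, fell by 0.37 from 57.7 ± 1.74 to 44.6 ± 0.690 CPM (edgeR adjusted p = 2.67e-05) and by 0.20 with the correction. DLAT, the acetyltransferase of pyruvate dehydrogenase, fell by 0.26 from 126 ± 3.77 to 106 ± 2.77 CPM (SD, n = 3 each, edgeR adjusted p = 4.06e-04). PDK2, a kinase that switches pyruvate dehydrogenase off, rose by 0.28 from 47.3 ± 3.85 to 57.5 ± 3.24 CPM (SD, n = 3 each, edgeR adjusted p = 0.00159) and by 0.15 with the correction. PDK1, a kinase with the same action, fell by 0.33 from 10.8 ± 1.22 to 8.57 ± 0.377 CPM (SD, n = 3 each, edgeR adjusted p = 0.0105), fell by 0.36 with the correction, and did not pass without DMSO replicate 3 (-0.25, edgeR adjusted p = 0.0718). PDK3 stood at 0.03 and did not pass. PDK1 and PDK3 were named after their values were seen.

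Of 12 genes of glutamine and glutamate use and of other routes joining the cycle, 5 fell and 0 rose, with a median of -0.14. Of all tested genes 15.5% were called lower and 13.8% higher. GOT2, the mitochondrial aspartate aminotransferase, fell by 0.32 from 168, 168 and 171 CPM in DMSO to 137, 133 and 136 CPM with doxycycline (edgeR adjusted p = 2.18e-05), and by 0.28 with the correction. GLUD1, glutamate dehydrogenase, fell by 0.18 (with the correction -0.10, edgeR adjusted p = 0.0673) and PCCB, of propionyl-CoA carboxylase, by 0.19. ALDH18A1 and MUT, named after their values were seen, fell by 0.16 and 0.21, MUT not with the correction (-0.06, edgeR adjusted p = 0.540). The count of 5 became 1 with upper-quartile scaling and 3 under library-size scaling, where 1585 and 1606 of all 15492 tested genes were called lower. It was 2 without DMSO replicate 1 (all genes: 1842 of 15923 lower) and 3 without doxycycline replicate 1 (1792 of 15758). It was 3 without doxycycline replicate 3 (1754 of 15730), and 2 with both DMSO replicate 2 and doxycycline replicate 1 removed (1915 of 15647).

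**Figure D5:**
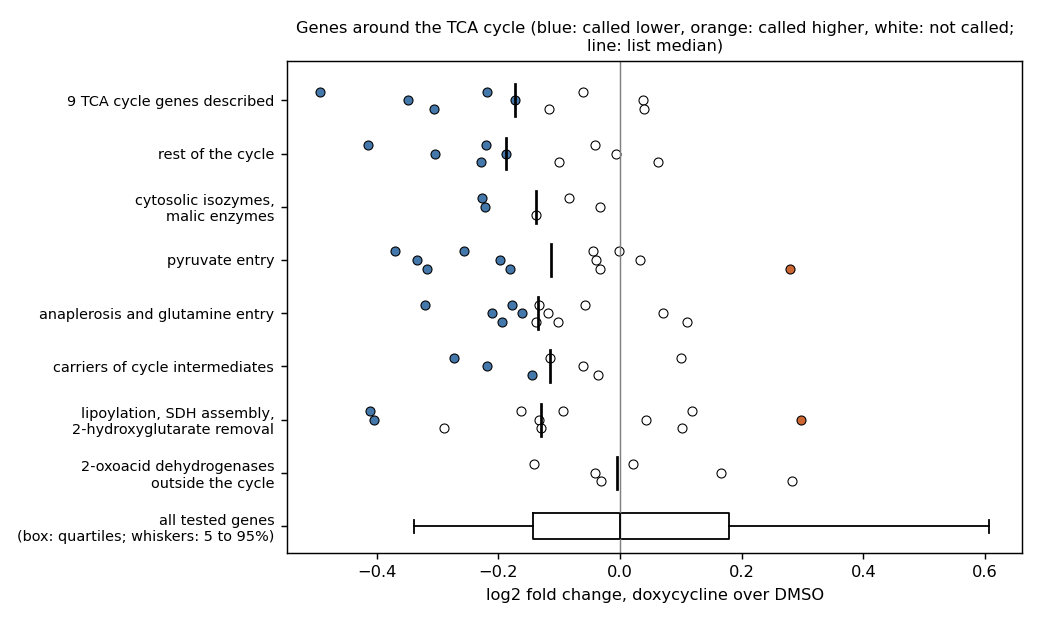
Log2 fold changes of tested genes in the 9 genes described and 7 lists around the cycle, by call (blue lower, orange higher, white not called), with list medians as lines; the box shows quartiles of all tested genes and its whiskers the 5th to 95th percentiles. List medians lie between -0.19 and -0.01.

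Of 7 mitochondrial carriers listed around the cycle 3 fell and 0 rose, beside 15.5% lower and 13.8% higher of all tested genes. The aspartate-glutamate carriers SLC25A13 and SLC25A12 fell by 0.27 and 0.22 and the oxoglutarate carrier SLC25A11 by 0.15 (edgeR adjusted p = 0.00917, 0.0179 and 0.0479). With the correction SLC25A13 and SLC25A12 did not pass (-0.18 and -0.11, edgeR adjusted p = 0.0692 and 0.198) and SLC25A11 fell by 0.21. The carrier count was 1 with upper-quartile scaling, where 1 carrier was called higher (all genes: 1585 lower and 2871 higher of 15492). It was 1 under library-size scaling (1606 of 15492 lower), and 0 without DMSO replicate 1 (1842 of 15923) or without doxycycline replicate 3 (1754 of 15730). Of 5 tested cytosolic isozymes and malic enzymes 2 fell and 0 rose, beside the same 15.5% and 13.8%. MDH1 fell by 0.23 from 111 ± 3.94 to 95.0 ± 1.48 CPM and ME2, the mitochondrial malic enzyme, by 0.22 from 103 ± 2.39 to 88.1 ± 2.39 CPM (SD, n = 3 each, edgeR adjusted p = 0.00136 and 0.00163). With the correction ME2 fell by 0.21 and MDH1 did not pass (-0.07, edgeR adjusted p = 0.222). IDH1 did not pass (-0.14, edgeR adjusted p = 0.0518). ME1 had 0 counts in every sample.

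Of 11 genes for lipoylation, succinate dehydrogenase assembly and removal of 2-hydroxyglutarate, 2 fell and 1 rose, shares near the 15.5% lower and 13.8% higher over all tested genes. The assembly factors SDHAF3 and SDHAF2 fell by 0.41 and 0.40 (edgeR adjusted p = 0.00126 and 0.0199). With the correction SDHAF3 fell by 0.25 and SDHAF2 did not pass (-0.29, edgeR adjusted p = 0.103), and SDHAF2 was also not called without DMSO replicate 2, doxycycline replicate 2 or doxycycline replicate 3, or by DESeq2. With both DMSO replicate 2 and doxycycline replicate 1 removed neither SDHAF3 (-0.24, edgeR adjusted p = 0.0614) nor SDHAF2 (-0.35, 0.0846) passed. D2HGDH, which oxidises D-2-hydroxyglutarate, rose by 0.30 from 16.1 ± 0.885 to 19.8 ± 1.56 CPM (SD, n = 3 each, edgeR adjusted p = 0.00509) and did not pass with the correction (0.09, edgeR adjusted p = 0.430). Of 6 genes of 2-oxoacid dehydrogenases outside the cycle 0 fell and 0 rose at the edgeR threshold and by DESeq2. At an unadjusted p under 0.05 there were also 0, and the share of all genes there is not given here. With the correction 1 of the 6 was called lower, BCKDK (-0.14, edgeR adjusted p = 0.0497), named after its value was seen. In that fit 11.4% of all genes were called lower, and with the replicate block added 0 of the 6 were. BCKDHA, BCKDHB and OGDHL stood at 0.28, -0.14 and 0.17.

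The mean profile of the 9 genes over the 6 samples, in centred log2 CPM, was 0.09, 0.12 and 0.06 in DMSO and -0.08, -0.08 and -0.11 with doxycycline. It was compared with 8119 other tested genes whose mean log2 CPM was at least 4. The nearest were CTPS1, DPH2, NUP88, CDC5L and ASH2L, at a root mean square distance of 0.00803 to 0.0148 log2 units. The median of the 8119 genes was at 0.103. Among the 9 genes themselves, CS was nearest to their mean at 0.0357 and SUCLG1 farthest at 0.160. IDH2 (0.117) and OGDH (0.112) were, like SUCLG1, farther from it than the median of the 8119 genes.

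In GENCODE 29, 2608 exon bases of IDH3A overlap ACSBG1 on the other strand, whose mean level was 0.883 CPM. Whether the counting used strand is not given in the sources used here, and counts of IDH3A are uncertain to that extent. Processed pseudogenes named for SUCLA2 and FH had at most 1 count in any sample.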

How the data were processed

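The 9 genes, the lists around the cycle, the tests, the alternatives and the rule for named genes were chosen with earlier results of these data known. Text names all 9 genes, MYC, genes of the 5 ratios, the 3 smallest p of each list and the 5 genes nearest in profile, and a few results are not reported here.

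The authors deposited raw read counts per gene for 6 libraries from total RNA, sequenced as strand-specific read pairs (DNBSEQ), per the labels' protocols. STAR 2.5.2a, featureCounts, DESeq2 1.12.4 and hg19 are named per the submitters' processing notes, without roles. The gene annotation, and whether counting used strand, are not given in the sources used here. In addition, the authors' deposited comparison table gives per gene a normalized mean (signal), the log2 fold change and its error, the Wald score, and raw and adjusted p-value.

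Counts were filtered with filterByExpr at its defaults, scaled with TMM and compared with edgeR 4.0.16 (quasi-likelihood test, R 4.3.3, treatment alone in the model). A gene was called where its p, adjusted by Benjamini-Hochberg, was under 0.05 over all 15492 tested genes. SE was taken as the absolute log2 fold change over the square root of F, and 95% intervals use edgeR's degrees of freedom. CPM values use TMM-scaled library sizes, and log2 CPM a prior count of 2. The correction fits each library's log2 CPM deviations, over genes with mean log2 CPM above 2, with natural splines (5 degrees of freedom each) of GC content and log2 length of the longest GENCODE 29 transcript, matched by identifier for 97.1% of tested genes, and enters them as an offset. The longest transcripts and merged exons come from GRCh38, so none of their coordinates is given. SDHAF3 and SDHAF4, which the table lists under older symbols, were matched by identifier. Fits were also run on simulated counts, with no outcome given here, and no result above rests on that. No pair of libraries held identical values, and replicates differed by more than sampling noise (chi-square per gene 2.55 or more). Alternatives were DESeq2 (1.42.0) and its size factors, upper-quartile scaling, scaling by library size, no filter, a replicate block, the correction with and without that block, and libraries left out.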

Additional observations from a re-analysis of the deposited data

How the results depend on the processing

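Each of the 9 genes was refitted under 15 alternatives. CS, SUCLG1 and FH kept direction and call in all 15, with log2 fold changes from -0.25 to -0.17, -0.52 to -0.27 and -0.38 to -0.17. IDH3A and IDH3B kept direction and stayed uncalled in all 15. SUCLA2 was called in 13 of 15 and MDH2 in 9 of 15. With GC content and length corrected IDH2 and OGDH turned to -0.011 and -0.059 and SUCLA2 did not pass (-0.17), and with the correction and the replicate block together they stood at -0.011, -0.059 and -0.17. MDH2 did not pass under upper-quartile (-0.12) or library-size scaling (-0.13), with both DMSO replicate 2 and doxycycline replicate 1 removed (-0.12), or in 3 of 6 fits without 1 replicate, whose values ran from -0.23 to -0.10. The cause of these changes was not tested. Counts of calls lower moved as follows. For genes of glutamine use and other routes joining the cycle, the count of 5 became 1 under upper-quartile scaling and 3 by library size. That count was 2 with both libraries left out and 2 to 5 without 1 replicate. For carriers the count of 3 became 1 under upper-quartile scaling (1 called higher), 1 by library size and 0 to 3 without 1 replicate. For the rest of the cycle the count of 5 became 3 with the correction and 3 with the correction and block, and for cytosolic isozymes 2 became 1 and 1. For lipoylation and assembly 2 became 1 and 1, and the 1 called higher became 0 and 0. Its count lower was also 1 by DESeq2, 0 with both libraries left out, and 1 to 2 without 1 replicate. Pyruvate entry went from 6 to 3 with the correction and block, and the 2-oxoacid dehydrogenases from 0 to 1 with the correction. Over all genes 2408 of 15492 were called lower, against 1712 of 15036 with the correction and 1633 of 15036 with the correction and block. Lower calls over all genes were 1585 of 15492 with upper-quartile scaling and 1606 of 15492 by library size. They were 1915 of 15647 with both libraries left out and 1754 to 2344 without 1 replicate. DESeq2 called 2150 lower and 1348 higher of 13767. Genes called higher were 2137, against 1620 with the correction and 1539 with the correction and block. Of called genes 47.0% were higher, against 64.4% under upper-quartile and 63.2% under library-size scaling. Same-numbered samples did not deviate together (correlations -0.04, -0.05 and 0.01), and no sample correlated best with its own number, so the number was taken as a name only. With the replicate block 5 of the 9 genes were still called lower, 4206 genes were called against 4545, and of the calls in the lists only that of SLC25A11 was lost. Without 1 replicate the difference in the IDH3A to IDH3B ratio ran from -0.11 to 0.05 and that of SUCLA2 to SUCLG2 from -0.04 to 0.08, so their signs turned, and the other 3 ratios kept theirs.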
